A study of Mus musculus with 6 samples.

Results

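Translation initiation factors load the small ribosomal subunit with initiator tRNA, bring it to the capped end of an mRNA and place it on the start codon. Elongation factors then deliver charged tRNAs and move the ribosome, and termination factors release the finished chain. The kinases of eIF2 and the binding proteins of eIF4E lower initiation under stress or poor nutrition. In the liver these factors serve the bulk synthesis of plasma proteins. The genes described here are the 67 rows, of 15565 in the deposited count table, whose symbols name initiation factors eIF1 to eIF6, elongation factors eEF1 and eEF2, or the termination factors Etf1, Gspt1 and Gspt2, together with the kinases, binding proteins and methyltransferases that carry those names. The symbols alone chose them, no symbol of a numbered pseudogene was among them, and all 67 passed the filter on low counts.

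The samples were 3 libraries of TERT(High) hepatocytes and 3 of TERT(Low) hepatocytes, sorted from the same 3 mice, so that each mouse gave 1 library to each group. All animals were C57BL/6 mice aged 2 months with the genotype Tert(CreERT2/+); R26(LSL-Tomato/+), that is, with the tamoxifen-activated recombinase CreERT2 in 1 copy of Tert, the telomerase catalytic subunit gene, and, in 1 copy of R26, a Tomato reporter that Cre switches on. The controls therefore carry both alleles too, and the activity of the Tert locus marks the cells. Neither the gate of the sort nor a tamoxifen treatment is given in the sources used here. The comparison asks whether RNA of these factors is unequal in TERT(High) and TERT(Low) hepatocytes of the same livers. The main fit has group as its only term and does not use the pairing by mouse, so spread between mice enters its errors. A fit with the mouse as a block is given as an alternative. Levels are counts per 1000000 counts of a library, scaled by TMM (CPM), and differences are log2 fold changes of TERT(High) over TERT(Low) with their standard error (SE) from edgeR's quasi-likelihood test, with p adjusted by Benjamini-Hochberg over all 13288 tested genes and a threshold of 0.05.

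The libraries held 53585174 to 64065266 counts in TERT(High) and 55355819 to 76164917 counts in TERT(Low) cells. Tert had 30 to 38 counts in TERT(High) and 12 to 21 counts in TERT(Low) libraries and did not pass (log2 fold change 0.87, edgeR adjusted p = 0.249). The 8 hepatocyte markers summed to 115773 to 128609 CPM in TERT(High) and 106789 to 129611 CPM in TERT(Low) libraries. Alb, the largest part of the sum, was higher in TERT(High) cells without overlap (log2 fold change 0.41). Apoa1 and Ttr were lower without overlap (-0.54 and -0.69), the others overlapped, and edgeR called none of the 8. Markers of endothelial cells summed to 27.4 to 53.4 CPM in TERT(High) and 18.8 to 20.7 CPM in TERT(Low) libraries, with 3 of 7 higher by edgeR. The 8 macrophage and Kupffer cell markers summed to 12.8 to 75.1 CPM in TERT(High) and 10.7 to 33.7 CPM in TERT(Low) libraries. Stellate cell markers summed to 141, 3.96 and 4.94 CPM in TERT(High) and 7.38, 4.12 and 9.37 CPM in TERT(Low) libraries of mice 1, 2 and 3. Most of the 141 CPM was Col1a1, at 127 CPM there and at 0.115 to 5.96 CPM in the other 5 libraries. All 7 markers of that list overlapped, and edgeR called 0 of the 6 tested. Lrat, Reln, Pdgfrb, Dcn and Col3a1 had log2 fold changes of 0.26, 0.75, -1.09, 0.06 and 2.12. Erythroid markers summed to 141, 20.9 and 15.5 CPM in TERT(High) and 51.9, 41.4 and 31.9 CPM in TERT(Low) libraries of mice 1, 2 and 3. Markers of T or NK cells summed to 5.71 to 7.19 CPM in TERT(High) and 10.1 to 19.2 CPM in TERT(Low) libraries, with Zap70 lower by edgeR. The part of these cell types in the differences was not tested. In bulk libraries of sorted cells, fewer cells of a type and less RNA per cell cannot be told apart.

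Of the 67 genes 3 rose in TERT(High) cells, Eif3a, Eif2ak2 and Eif4g2, and 4 fell, Eif3i, Eif3k, Eif6 and Eef1b2. These are 4.48% higher and 5.97% lower, against 4.43% higher and 3.71% lower among all tested genes, and 10.4% in either direction, against 8.14%, shares close to the background. The most abundant factors, Eef1a1 and Eef2, did not pass. The median log2 fold change was -0.08, against -0.01 over all tested genes, and the members spread widely around it. At an unadjusted p under 0.05, 15 were higher (22.4%, against 16.3% of all tested genes) and 17 lower (25.4%, against 12.4%). All TERT(High) values exceeded all TERT(Low) values for 12 members (17.9%, against 17.5% of all tested genes) and all were under them for 19 (28.4%, against 15.9%), and whether these shares differ was not tested. In all 3 mice 19 members were higher and 26 lower, against 28.2% and 27.6% of all tested genes. With the mouse as a block edgeR called 4 higher (5.97%, against 5.43% of all tested genes) and 5 lower (7.46%, against 4.3%), and DESeq2 called 10 higher (14.9%, against 13.6%) and 16 lower (23.9%, against 11.3%). All adjusted p of called members lay between 0.0277 and 0.0431, and edgeR called no member when any 1 library other than TERT(High) of mouse 1, or both libraries of any mouse, were left out. In each of those settings edgeR called 0% of all genes tested, in either direction. All 7 calls also ended when trends with transcript length and GC content were removed, as described further on. For single roles, whether the counts given below differ from the shares of all tested genes was not tested.

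**Figure D1:**
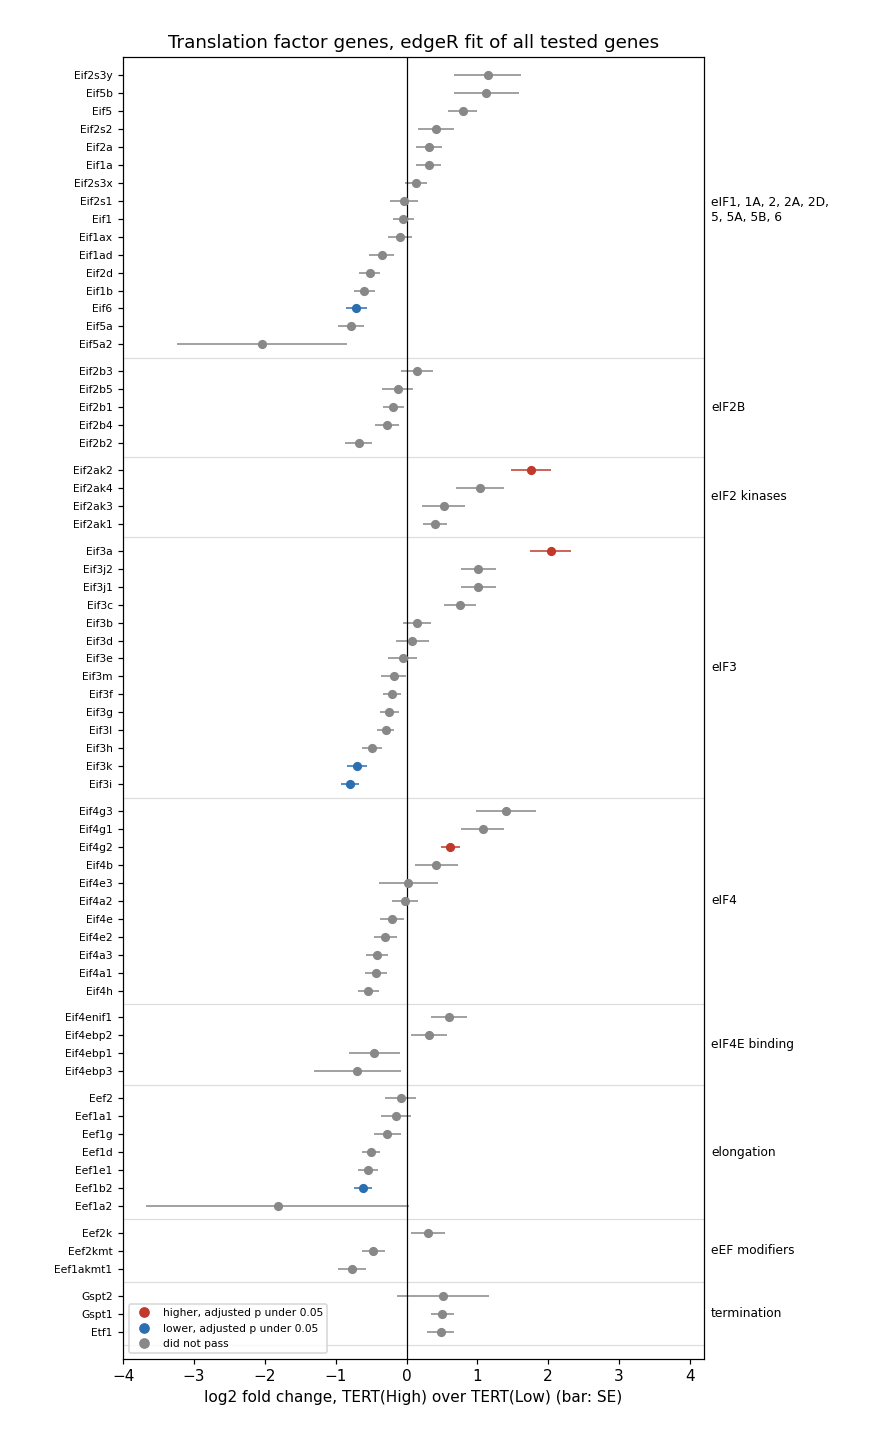
Log2 fold change of TERT(High) over TERT(Low) for the 67 genes by role, with 1 SE as the bar (n = 3 libraries in each group). Eif3a and Eif2ak2 lie farthest to the right, at 2.03 and 1.76, and the genes of elongation factors all lie left of 0 with this scaling, though Eef2 does not with library totals alone.

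The start regions of those 7 genes are shown where RefSeq on GRCm38.p6 lists one, which holds for 51 of the 67 genes and for 4 of the 7. Each is given 5′ to 3′ on the gene's strand from 100 bases before the annotated start to 30 bases from it, with matches to CACGTG (the E box bound by factors of the Myc and Tfe families) or to GAAA, any 2 bases and GAAA (the core of interferon-stimulated response elements), searched on both strands, in capitals.
Eif3a, chr19:60790664-60790793, minus strand: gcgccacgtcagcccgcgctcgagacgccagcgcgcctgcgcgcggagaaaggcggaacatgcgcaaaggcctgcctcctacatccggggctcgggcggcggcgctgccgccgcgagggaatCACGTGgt
Eif2ak2, chr17:78882543-78882672, minus strand: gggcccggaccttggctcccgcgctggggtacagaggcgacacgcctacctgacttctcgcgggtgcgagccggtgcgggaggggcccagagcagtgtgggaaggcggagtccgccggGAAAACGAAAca
Eif3k, chr7:28981859-28981988, minus strand: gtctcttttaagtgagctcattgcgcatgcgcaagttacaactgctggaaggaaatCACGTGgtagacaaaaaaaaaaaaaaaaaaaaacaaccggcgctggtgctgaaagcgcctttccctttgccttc
Eef1b2, chr1:63176731-63176860, plus strand: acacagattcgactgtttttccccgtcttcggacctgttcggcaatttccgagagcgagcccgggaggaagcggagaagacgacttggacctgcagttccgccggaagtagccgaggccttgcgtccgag

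Eif3a, which rose, and Eif3k, which fell, both held CACGTG, at bases 23 to 28 and -44 to -39 counted from the start, and Eef1b2, which fell, held neither motif in these windows. Eif2ak2 held GAAAACGAAA at bases 19 to 28, and Eif3a held a match to that second motif on the other strand at -211 to -202, outside the stretch shown. Over windows of 250 bases before to 50 bases after the start, CACGTG occurred in 12 of the 51 genes (23.5%), against 8.09% of 27025 genes with an entry, and the second motif in 4 of 51 (7.84%), against 3.99%. Those 27025 genes outnumber the 15565 rows of counts and so include genes not counted here, while all members passed the count filter. Whether the shares differ from those of tested genes was not tested. The 12 were Eef2, Eef2k, Eif1b, Eif3a, Eif3f, Eif3k, Eif4a1, Eif4e, Eif4g1, Eif4h, Eif5a and Eif5a2, which include genes higher and genes lower in TERT(High) cells. A match in these letters is a description of the sequence and not a bound site.

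Of the 14 genes of eIF3, the large scaffold that holds the small ribosomal subunit and the cap-binding complex together, edgeR called 1 higher and 2 lower. Of all tested genes it called 4.43% higher and 3.71% lower. Eif3a, the largest subunit and its core scaffold (Entrez gene 13669, chromosome 19, 60761116 to 60790693, mm10), stood at 39.3, 36.3 and 57.9 CPM in the TERT(High) libraries, against 7.51, 11.4 and 13.7 CPM in the TERT(Low) libraries, here and below in the order of mice 1, 2 and 3. Every TERT(High) library held more than every TERT(Low) library, at 44.5 ± 11.7 against 10.9 ± 3.12 CPM (SD, n = 3 each), 4.09 times as much (log2 fold change 2.03, SE 0.29, edgeR adjusted p = 0.0277). Eif3i, a propeller-shaped peripheral subunit (Entrez gene 54709, chromosome 4, 129591974 to 129600648), fell, with 88.5, 83.0 and 85.9 CPM in TERT(High), against 141, 155 and 150.4 in TERT(Low) cells (-0.80, SE 0.12, edgeR adjusted p = 0.0277). Eif3k, a small subunit of the core (Entrez gene 73830, chromosome 7, 28971372 to 28981890), fell as well, with 42.3, 36.8 and 36.4 CPM in TERT(High), against 66.5, 59.8 and 61.3 in TERT(Low) cells (-0.70, SE 0.14, edgeR adjusted p = 0.0348). For both genes the groups did not overlap.

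The remaining subunits did not pass in edgeR, while DESeq2 also called Eif3c, Eif3j1 and Eif3j2 higher and Eif3h and Eif3l lower. Of all tested genes DESeq2 called 13.6% higher and 11.3% lower. Eif3c, another core subunit, was at 59.8, 109 and 95.2 CPM in TERT(High), against 50.4, 53.4 and 52.5 in TERT(Low) cells, with groups that did not overlap (0.75, SE 0.23, edgeR adjusted p = 0.0872). Eif3h, Eif3l, Eif3g and Eif3f had TERT(High) values wholly below the TERT(Low) values, with log2 fold changes of -0.49, -0.30, -0.24 and -0.21. Eif3m, Eif3e, Eif3d and Eif3b overlapped, with log2 fold changes between -0.18 and 0.15. Eif3b, the scaffold that holds Eif3i and Eif3g, was at 75.8, 112 and 92.6 CPM in TERT(High), against 78.5, 97.6 and 77.4 in TERT(Low) cells (0.15, SE 0.19). Eif3j1 and Eif3j2, the gene of the loosely bound eIF3j subunit and a near-identical copy on another chromosome, held the same count in each of the 6 libraries, 2173, 1300 and 1772 in TERT(High) and 820, 794 and 889 in TERT(Low) cells. They are 1 measurement, whose source gene is uncertain, so that the 67 rows hold 66 count profiles. Their level was 29.1 ± 7.09 CPM in TERT(High), against 14.4 ± 2.92 in TERT(Low) cells (1.02, SE 0.25, edgeR adjusted p = 0.0534), without overlap between the groups.

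**Figure D2:**
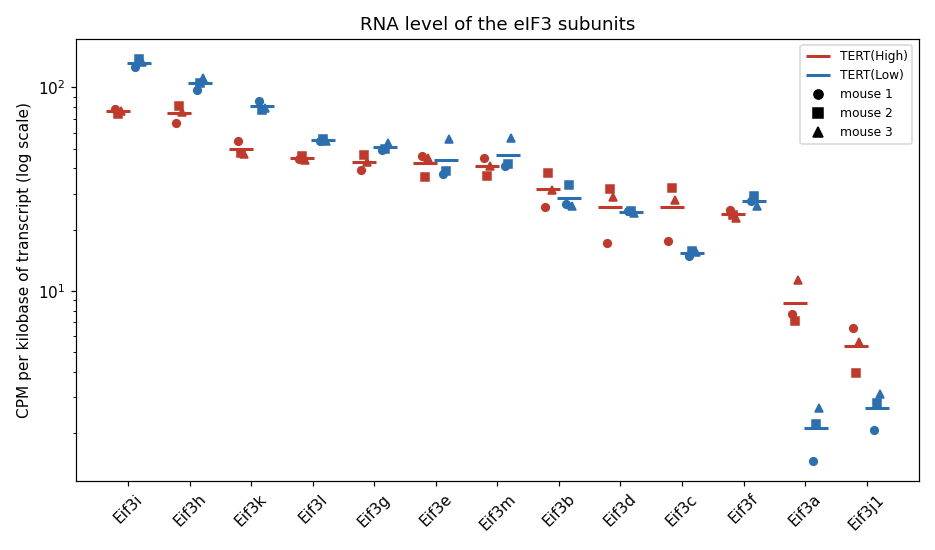
RNA level of the 13 distinct eIF3 subunits in CPM per kilobase of transcript on a log scale, per library (symbols by mouse) and as group mean (bar), with the shared Eif3j counts given to the Eif3j1 transcript. Eif3a stands at 8.68 CPM per kilobase in TERT(High) and 2.12 in TERT(Low) cells, while Eif3i stands at 76.4 in TERT(High) and 132.6 in TERT(Low) cells.

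The 13 subunits form a complex with 1 copy of each, and their RNA levels per kilobase of transcript were unequal in both groups. The highest level, of Eif3i, was 14.2 times the lowest in TERT(High) and 62.5 times the lowest in TERT(Low) cells. The median was 40.9 CPM per kilobase in TERT(High) and 44.1 in TERT(Low) cells. Eif3a was the lowest of the 13 in TERT(Low) cells, at 2.12 CPM per kilobase, and the second lowest in TERT(High) cells, at 8.68, above Eif3j1 at 5.38. These levels depend on the transcript taken for each gene, here the one with the longest coding sequence. With the shared Eif3j counts given to the Eif3j2 transcript of 2379 nt instead of the Eif3j1 transcript of 5413 nt, Eif3a was the lowest in both groups and the range in TERT(High) cells was 8.80-fold. Within a library the ratio of counts of 2 subunits does not depend on the scaling between libraries, though it does on trends with transcript length. The Eif3a to Eif3k ratio was 0.930, 0.987 and 1.59 in TERT(High), against 0.113, 0.191 and 0.223 in TERT(Low) cells, a 6.72-fold difference. The transcripts of these 2 genes differ in length, 5125 nt for Eif3a and 774 nt for Eif3k, and with length and GC trends removed, as described further on, the difference was 3.30-fold (1.72 on the log2 scale). The Eif3a to Eif3b ratio was 0.518, 0.323 and 0.625 in TERT(High) and 0.0956, 0.117 and 0.177 in TERT(Low) cells, 3.75-fold, and 2.61-fold after that correction. In each of the 3 mice both ratios were higher in the TERT(High) cells, and an exact two-sided permutation test over the 6 libraries gave p = 0.1 for each, the smallest value that 3 against 3 libraries allow, and 0.4 after Benjamini-Hochberg adjustment over the 12 ratios compared. Here and below, that permutation test does not use the pairing of the libraries by mouse.

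All 4 kinases of eIF2 phosphorylate its alpha subunit and so lower initiation. Each had higher values in the TERT(High) cells of every mouse, as did 28.2% of all tested genes. Of the 4, edgeR called Eif2ak2 higher and DESeq2 Eif2ak2 and Eif2ak4, against 4.43% and 13.6% of all tested genes. The transcripts of the 4 kinases are long, 4313 to 5212 nt, against a median of 2515 nt for all members. With length and GC trends removed, as described further on, Eif2ak1, Eif2ak3 and Eif2ak4 stood at 0.23, 0.39 and 0.77. Their SE were 0.16, 0.32 and 0.29, and Eif2ak2 stood at 1.45 (SE 0.28). Eif2ak2 encodes PKR, the kinase activated by double-stranded RNA and induced by interferon (Entrez gene 19106, chromosome 17, 78850504 to 78882572). It stood at 3.66, 4.46 and 6.09 CPM in TERT(High), against 1.17, 1.30 and 1.73 in TERT(Low) cells, 3.39 times as much and without overlap (1.76, SE 0.28, edgeR adjusted p = 0.0277). Its annotated span overlaps a pseudogene, Gm6548, and how reads of the overlap were counted is not known here. Eif2ak4, the amino acid sensor GCN2, was at 2.15, 4.89 and 4.65 CPM in TERT(High), against 2.00, 1.93 and 1.76 in TERT(Low) cells (1.04, SE 0.34, edgeR adjusted p = 0.0993). The groups did not overlap, although in mouse 1 the difference was only 0.11 on the log2 scale, against 1.34 and 1.39 in mice 2 and 3. Eif2ak3, the kinase PERK of the endoplasmic reticulum, was at 14.3, 7.28 and 14.4 CPM in TERT(High), against 9.40, 6.53 and 9.11 in TERT(Low) cells, with overlap (0.52, SE 0.30). Eif2ak1, the heme-regulated kinase HRI, was at 23.5, 28.7 and 22.8 CPM in TERT(High), against 19.9, 20.4 and 16.3 in TERT(Low) cells, without overlap (0.40, SE 0.17, edgeR adjusted p = 0.17). The Eif2ak3 to Eif2ak1 ratio overlapped between the groups, at 0.610, 0.254 and 0.633 in TERT(High) and 0.472, 0.320 and 0.559 in TERT(Low) cells.

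The genes of eIF2 itself, which carries the initiator tRNA, overlapped between the groups. Eif2s1, the alpha subunit that the kinases phosphorylate, was at 39.4 ± 9.46 CPM in TERT(High), against 40.4 ± 2.81 in TERT(Low) cells (-0.04, SE 0.20), and Eif2s2 and the X-linked Eif2s3x, the beta and gamma subunits, differed by log2 fold changes of 0.41 (SE 0.25) and 0.14 (SE 0.15). Eif2s3y, the Y-linked copy of the gamma subunit, was counted in all 6 libraries, at 19.8, 5.43 and 12.9 CPM in TERT(High), against 4.22, 5.27 and 7.74 in TERT(Low) cells (1.15, SE 0.48, edgeR adjusted p = 0.173). Most of its difference came from mouse 1, where it was 2.22 on the log2 scale, against 0.04 in mouse 2 and 0.73 in mouse 3. Of the 5 subunits of eIF2B, the factor that recharges eIF2 with GTP and that phosphorylated eIF2 blocks, edgeR called 0. An unadjusted p under 0.05 held for 1 gene, which was lower, as were 12.4% of all tested genes. DESeq2 called Eif2b2 lower, and 11.3% of all tested genes. Eif2b2 had the largest difference among them, at 13.2 ± 1.78 CPM in TERT(High), against 21.1 ± 3.89 in TERT(Low) cells (-0.68, SE 0.19, edgeR adjusted p = 0.0754, and 0.0478 with the mouse as a block). Eif2b1, Eif2b3, Eif2b4 and Eif2b5 lay between -0.28 and 0.15.

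Among the other factors at the start codon and the joining of the subunits, Eif6 fell by edgeR, and DESeq2 called Eif1b, Eif2d, Eif5a and Eif6 lower and Eif5 higher. Among all tested genes 3.71% fell by edgeR, and DESeq2 called 11.3% lower and 13.6% higher. Eif6 encodes a factor that keeps the large ribosomal subunit from joining too early (Entrez gene 16418, chromosome 2, 155819837 to 155826925), and stood at 52.9, 42.2 and 42.0 CPM in TERT(High), against 78.7, 74.5 and 71.1 in TERT(Low) cells (-0.71, SE 0.15, edgeR adjusted p = 0.0409). Eif5a, which helps the ribosome over difficult peptide bonds and carries the hypusine modification, was at 384, 312 and 319.95 CPM in TERT(High), against 497, 697 and 548 in TERT(Low) cells, without overlap, and narrowly did not pass (-0.78, SE 0.18, edgeR adjusted p = 0.0508). Eif5, the factor that triggers GTP hydrolysis on eIF2, and Eif5b, the GTPase of subunit joining, had higher values in TERT(High) cells of all 3 mice. Eif5 was at 119, 71.9 and 87.6 CPM in TERT(High), against 49.2, 57.6 and 53.8 in TERT(Low) cells (0.79, SE 0.21, edgeR adjusted p = 0.0628). Eif5b was at 7.90, 13.6 and 21.9 CPM in TERT(High), against 3.68, 7.52 and 8.75 in TERT(Low) cells (1.13, SE 0.46, edgeR adjusted p = 0.164, and 0.0407 with the mouse as a block). Within each mouse the Eif5b difference was 0.86 to 1.33 on the log2 scale, while the mice themselves differed in level. The Eif5 to Eif5b ratio overlapped between the groups.

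Neither Eif1, the factor that guards start codon selection, nor its paralog Eif1b passed in edgeR with TMM scaling, while Eif1b was called lower by DESeq2 and by edgeR with upper-quartile scaling. Eif1 was at 191, 163 and 147 CPM in TERT(High), against 180.2, 167 and 169 in TERT(Low) cells (-0.04, SE 0.15), and Eif1b was at 13.4, 11.7 and 14.3 CPM in TERT(High), against 18.6, 21.3 and 19.8 in TERT(Low) cells (-0.60, SE 0.15, edgeR adjusted p = 0.0549). Their count ratio, Eif1 over Eif1b, was 14.3, 13.9 and 10.2 in TERT(High) and 9.68, 7.83 and 8.51 in TERT(Low) cells, without overlap (exact two-sided permutation p = 0.1, the smallest possible). With trends with length and GC content removed Eif1 stood at 0.35 and Eif1b at -0.04. Eif2d, an alternative carrier of initiator tRNA, was at 42.4 ± 4.72 CPM in TERT(High), against 60.7 ± 4.52 in TERT(Low) cells, without overlap (-0.52, SE 0.15, edgeR adjusted p = 0.0739). Eif1a, Eif1ax, Eif1ad and Eif2a had log2 fold changes of 0.31, -0.09, -0.35 and 0.32. Eif5a2, the second eIF5A gene, was near the limit of detection, with 3, 2 and 20 counts in TERT(High) and 81, 4 and 30 counts in TERT(Low) cells.

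Of the 11 genes of the eIF4 group, which recognises the cap, unwinds the leader and bridges to eIF3, 1 rose and 0 fell by edgeR. Of all tested genes 4.43% rose and 3.71% fell. An unadjusted p under 0.05 held for 3 that were higher and 3 that were lower, against 16.3% and 12.4% of all tested genes. DESeq2 called Eif4g1, Eif4g2 and Eif4g3 higher and Eif4a1, Eif4a3 and Eif4h lower, against 13.6% and 11.3% of all tested genes. The gene that rose was Eif4g2, which encodes DAP5, a scaffold related to eIF4G that lacks the cap-binding part (Entrez gene 13690, chromosome 7, 111067985 to 111083030). It stood at 267, 273 and 283 CPM in TERT(High), against 164, 178 and 195 in TERT(Low) cells, without overlap (0.61, SE 0.13, edgeR adjusted p = 0.0431). Eif4g1, the main scaffold that joins cap, helicase and eIF3, was at 145, 265 and 230.1 CPM in TERT(High), against 125, 108 and 70.6 in TERT(Low) cells (1.08, SE 0.30, edgeR adjusted p = 0.0716), and its paralog Eif4g3 at 5.66, 14.5 and 16.1 CPM in TERT(High), against 5.75, 4.56 and 3.28 in TERT(Low) cells (1.41, SE 0.42, edgeR adjusted p = 0.0839). Neither Eif4g1 nor Eif4g3 passed, and both differed little in mouse 1, by 0.21 and -0.02 on the log2 scale, against 1.30 and 1.66 in mouse 2 and 1.70 and 2.29 in mouse 3. The count ratios to Eif4g2 overlapped between the groups and were lower in TERT(High) cells of mouse 1 and higher in those of mice 2 and 3. They were 0.542, 0.972 and 0.813 for Eif4g1 in TERT(High) and 0.764, 0.603 and 0.362 in TERT(Low) cells, and 0.0212, 0.0529 and 0.0568 for Eif4g3 in TERT(High) and 0.0351, 0.0256 and 0.0168 in TERT(Low) cells.

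Eif4a1, the main RNA helicase that unwinds the leader of the mRNA, was at 279, 309.5 and 268 CPM in TERT(High), against 355, 441 and 361 in TERT(Low) cells, without overlap (-0.43, SE 0.15, edgeR adjusted p = 0.119). Its paralog Eif4a2 was at 86.8, 72.6 and 64.8 CPM in TERT(High), against 67.5, 70.4 and 89.1 in TERT(Low) cells (-0.02, SE 0.18), and the ratio of Eif4a1 to Eif4a2 overlapped between the groups, at 3.22, 4.27 and 4.13 in TERT(High) and 5.26, 6.26 and 4.04 in TERT(Low) cells. Eif4h and Eif4b, helpers of the helicase, had log2 fold changes of -0.54 (SE 0.15, edgeR adjusted p = 0.0721) and 0.42 (SE 0.31, edgeR adjusted p = 0.427), and Eif4a3, a helicase of the exon junction complex, of -0.42 (SE 0.15, edgeR adjusted p = 0.125). Eif4e, the cap-binding protein, was at 34.8 ± 4.83 CPM in TERT(High), against 40.1 ± 4.67 in TERT(Low) cells (-0.21, SE 0.17), and its relatives Eif4e2 and Eif4e3 had log2 fold changes of -0.30 and 0.03.

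**Figure D3:**
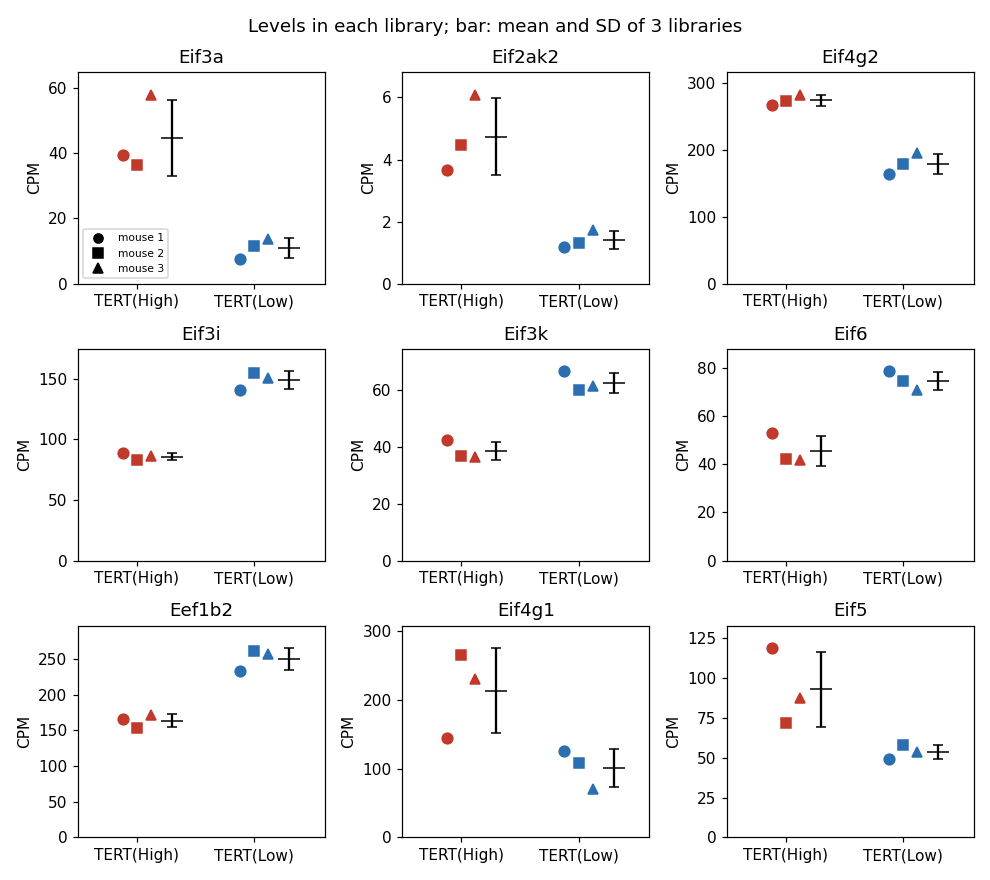
Level in CPM in each library, by group and mouse, with the mean and SD of the 3 libraries, for the 7 genes that passed and for Eif4g1 and Eif5, which did not. Eif4g2, Eif3i and Eif3k show narrow groups that stand apart, while Eif4g1 in TERT(High) cells of mouse 1, at 145 CPM, lies close to the TERT(Low) values.

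The eIF4E binding proteins, which keep eIF4E from the scaffold when mTOR signalling is low, and the transporter Eif4enif1 gave 0 of 4 calls by edgeR (0 at an unadjusted p under 0.05) and 0 by DESeq2, both with group as the only term. Of all tested genes edgeR called 4.43% higher and 3.71% lower, and DESeq2 13.6% and 11.3%. The authors' deposited table, for which the processing notes name DESeq2, has Eif4ebp3 and Eif4ebp1 lower. Their log2 fold changes there are -0.56 and -0.46, with adjusted p of 0.0106 and 0.0451. Eif4ebp3 was at 24.9, 60.8 and 23.7 CPM in TERT(High), against 35.6, 112 and 29.7 in TERT(Low) cells, highest in mouse 2 in both groups and lower in the TERT(High) cells of every mouse (-0.69, SE 0.61, edgeR adjusted p = 0.514, and 0.0757 with the mouse as a block). Eif4ebp1 was at 45.2, 27.0 and 22.9 CPM in TERT(High), against 62.8, 31.4 and 36.2 in TERT(Low) cells, highest in mouse 1 in both groups (-0.46, SE 0.36, edgeR adjusted p = 0.461, and 0.102 with the mouse as a block). Eif4ebp2 was at 55.2, 41.5 and 36.3 CPM in TERT(High), against 36.2, 44.7 and 25.6 in TERT(Low) cells (0.32, SE 0.26). The ratio of Eif4ebp1 to Eif4ebp2 was lower in TERT(High) cells of all 3 mice, at 0.818, 0.651 and 0.631 in TERT(High) and 1.74, 0.702 and 1.42 in TERT(Low) cells, with overlap between the groups (exact two-sided permutation p = 0.2). Eif4enif1, which carries eIF4E into the nucleus, was at 6.02, 11.2 and 8.61 CPM in TERT(High), against 5.74, 6.30 and 5.08 in TERT(Low) cells (0.59, SE 0.25, edgeR adjusted p = 0.182).

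Of the 7 genes named as elongation factors, 1 fell by edgeR and 3 by DESeq2 (Eef1b2, Eef1d and Eef1e1), against 3.71% and 11.3% of all tested genes. All 7 had a log2 fold change below 0 with TMM scaling. Eef2 was above 0 with library totals alone, and Eef1a1 and Eef1g after the length and GC correction. Eef1b2, a subunit of the factor that recharges eEF1A with GTP (Entrez gene 55949, chromosome 1, 63176831 to 63180486), was at 166, 153 and 171 CPM in TERT(High), against 233, 261 and 257 in TERT(Low) cells (-0.61, SE 0.13, edgeR adjusted p = 0.0416). Eef1d, another subunit of that exchange factor, was at 70.2 ± 4.36 CPM in TERT(High), against 99.6 ± 1.96 in TERT(Low) cells (-0.50, SE 0.12, edgeR adjusted p = 0.0551), and Eef1e1, which belongs to the complex of tRNA synthetases, at 9.65 ± 0.756 CPM in TERT(High), against 14.1 ± 0.261 in TERT(Low) cells (-0.54, SE 0.14, edgeR adjusted p = 0.0587). Neither overlapped between the groups. Eef1g, the third subunit, overlapped (-0.27, SE 0.19).

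Eef1a1, which delivers charged tRNAs and has many pseudogene copies, was at 3516, 4600.3 and 4755 CPM in TERT(High), against 4053, 4378 and 5877 in TERT(Low) cells, and alone made up 0.398% to 0.517% of all counts in TERT(High) and 0.391% to 0.56% in TERT(Low) libraries. Eef2, which moves the ribosome along the mRNA, was at 1024, 1717 and 1368 CPM in TERT(High), against 1352, 1656 and 1349 in TERT(Low) cells. Both overlapped between the groups (log2 fold changes of -0.15, SE 0.21, and -0.08, SE 0.22), and their sign changed with the scaling or the libraries used. Per kilobase of transcript the 5 highest genes in TERT(High) cells were Eef1a1, Eef2, Eif5a, Eif4a1 and Eif1, at 2392, 443, 236, 161 and 126 CPM per kilobase, against 2659, 470.2, 404, 217 and 130.1 in TERT(Low) cells. The Eef1b2 to Eef1a1 ratio was lower in TERT(High) cells of all 3 mice, at 0.0473, 0.0333 and 0.036 in TERT(High) and 0.0575, 0.0596 and 0.0437 in TERT(Low) cells, with overlap (exact two-sided permutation p = 0.2). The Eef2 to Eef1a1 ratio differed by 0.04 on the log2 scale (SD 0.21 in TERT(High) and 0.37 in TERT(Low) cells). Eef1a2, the isoform of muscle and neurons, varied widely between mice, with 10, 1 and 133 counts in TERT(High) and 429, 0 and 149 counts in TERT(Low) cells.

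Of the 3 enzymes that modify the elongation factors edgeR called 0. An unadjusted p under 0.05 held for 2 that were lower, against 12.4% of all tested genes. DESeq2 called Eef1akmt1 lower, and 11.3% of all tested genes. Eef1akmt1, a lysine methyltransferase of eEF1A, was at 4.39, 4.97 and 4.60 CPM in TERT(High), against 7.59, 9.60 and 6.64 in TERT(Low) cells, without overlap (-0.77, SE 0.19, edgeR adjusted p = 0.0578). Eef2kmt, a methyltransferase of eEF2, did not overlap either (-0.47, SE 0.17, edgeR adjusted p = 0.121), and Eef2k, the kinase that inactivates eEF2, had a log2 fold change of 0.31 (SE 0.24). Of the 3 termination factors both tools called 0, with 2 higher at an unadjusted p under 0.05 by edgeR, against 16.3% of all tested genes. Etf1, which reads the stop codons, was at 68.4, 53.5 and 62.7 CPM in TERT(High), against 38.2, 39.5 and 54.2 in TERT(Low) cells (0.48, SE 0.19, edgeR adjusted p = 0.152). Its GTPase partner Gspt1 was at 94.9, 69.4 and 73.7 CPM in TERT(High), against 55.8, 54.7 and 57.0 in TERT(Low) cells (0.51, SE 0.16, edgeR adjusted p = 0.0945). The ratio of Gspt1 to Etf1 was 1.18 to 1.39 in TERT(High) and 1.05 to 1.46 in TERT(Low) cells, with a log2 difference of -0.0017. Gspt2, a copy without introns, stayed at 0.408 ± 0.212 CPM in TERT(High), against 0.285 ± 0.115 in TERT(Low) cells.

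Other genes of translation and of its control, taken from a list of 49 of which 48 were in the table and tested, gave 3 higher and 1 lower by edgeR, where 4.43% and 3.71% of all tested genes were called. Larp4, a protein that binds poly(A) tails, had 29.7 ± 7.98 CPM in TERT(High), against 11.04 ± 0.977 in TERT(Low) cells (1.43, SE 0.22, edgeR adjusted p = 0.0277). Rictor, the scaffold of mTOR complex 2, had 4.36 ± 0.845 CPM in TERT(High), against 1.62 ± 0.177 in TERT(Low) cells (1.42, SE 0.23, edgeR adjusted p = 0.0277), and Ddx3x, an RNA helicase that aids initiation on structured leaders, 108 ± 31.5 CPM in TERT(High), against 45.1 ± 8.60 in TERT(Low) cells (1.26, SE 0.26, edgeR adjusted p = 0.0395). Dohh, the hydroxylase that completes hypusine on eIF5A, fell, with 18.5 ± 3.26 CPM in TERT(High), against 32.0 ± 2.54 in TERT(Low) cells (-0.79, SE 0.17, edgeR adjusted p = 0.0439), beside Eif5a at -0.78. None of the 4 calls held after the length and GC correction, where Larp4 stood at 0.65 (SE 0.22), Rictor at 0.65 (SE 0.31), Ddx3x at 0.75 (SE 0.16) and Dohh at -0.35 (SE 0.20), with edgeR adjusted p of 0.0997 to 0.423. With that correction edgeR called 0% of all genes tested, so the loss was not particular to these 4.

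The differences of the members went with the length of their transcripts. Across the 66 distinct members log2 fold change and transcript length were correlated (Spearman 0.62), against 0.482 over 12548 tested genes, which share libraries and depth and are not independent. The median transcript was 4325 nt for the 15 members higher at an unadjusted p under 0.05, 1605 nt for the 17 lower and 2515 nt for all 67. Eif3a, Eif2ak2 and Eif4g2 have 5125, 4313 and 7995 nt, and Eif3k, Eif3i, Eif6 and Eef1b2 774, 1123, 1500 and 1939 nt. The slope of log2 CPM on log2 transcript length, relative to the mean of the 6 libraries, was 0.0934 to 0.219 in TERT(High) and -0.196 to -0.0833 in TERT(Low) libraries. With each library's trend with length and GC content removed, edgeR called 0 of the 67 genes and 0.0% of all genes tested. An unadjusted p under 0.05 then held for 9 members that were higher and 7 that were lower. The share of all genes at that level was not worked out for this setting, so these counts have no background beside them. Eif3a and Eif2ak2 then had log2 fold changes of 1.63 (SE 0.28, edgeR adjusted p = 0.0912) and 1.45 (SE 0.28, edgeR adjusted p = 0.0935). Eif4g2 stood at -0.07 and Eif3k at -0.09 (SE 0.18 each), and Eif3i, Eif6 and Eef1b2 at -0.28, -0.30 and -0.47 (SE 0.14, 0.17 and 0.16). With that correction and the mouse as a block, edgeR called Eif3a, Eif2ak2, Eif4g1 and Eif3j2 higher (5.97% of members, against 3.46% of all genes tested) and Eif4e lower (1.49%, against 0.765%). The call of Eif3j2 and not of Eif3j1, on the same counts, came with their annotated transcripts of 2379 and 5413 nt.

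**Figure D4:**
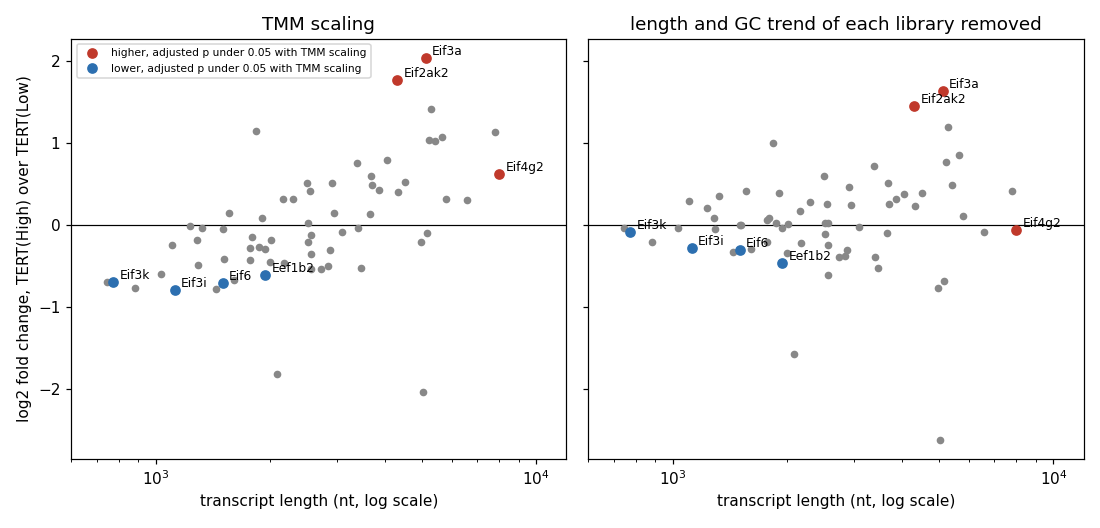
Log2 fold change against transcript length on a log axis for the 66 distinct members, with TMM scaling (left) and with length and GC trends taken out of every library (right). On the right Eif3a and Eif2ak2 remain at 1.63 and 1.45, and Eif4g2 and Eif3k lie near 0.

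The mice differed in which members moved. In mouse 1 the difference between TERT(High) and TERT(Low) cells followed GC content across the members, with a Spearman correlation of -0.616, against -0.206 in mouse 2 and -0.219 in mouse 3. Over all 12548 genes the values were -0.471, -0.178 and -0.064. Genes of low GC content such as Eif5 (41.7%) and Eif2s3y (39.5%) had larger differences in mouse 1, at 1.27 and 2.22, than in mice 2 and 3, at 0.32 and 0.70 for Eif5 and 0.04 and 0.73 for Eif2s3y. Among genes of high GC content Eif4g1 (54.2%) and Eif4g3 (54.5%) did the opposite, but not all did. Eif5a (55.0%) had -0.37, -1.16 and -0.78 and Eif6 (57.9%) -0.57, -0.82 and -0.76 in mice 1, 2 and 3. Eif3a (44.5%) had 2.39, 1.67 and 2.08 and Eif2ak2 (43.9%) 1.64, 1.77 and 1.81 in mice 1, 2 and 3. The correlation with transcript length was 0.517, 0.54 and 0.622 in the 3 mice.

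**Figure D5:**
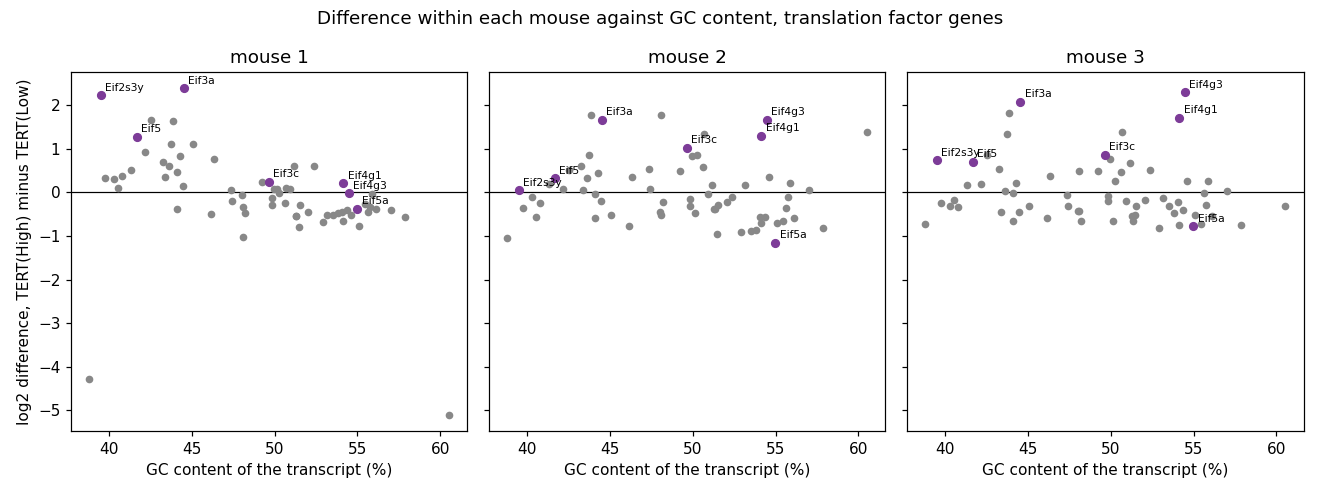
Log2 difference between TERT(High) and TERT(Low) cells within each mouse against the GC content of the transcript, for the 66 distinct members. The points fall with GC content in mouse 1, where Eif4g1 and Eif4g3 lie at 0.21 and -0.02, and those 2 genes lie high in mice 2 and 3.

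The authors' deposited table of results lists 65 of the 67 genes, all but Eif5a2 and Gspt2, with the same sign as here for all 65. Of these the authors' deposited table has 12 higher (15.8% of all its genes are) and 16 lower (13.4% of all its genes) at an adjusted p under 0.05. In the authors' deposited table Eif3a has a log2 fold change of 1.90 with an SE of 0.21, and Eif2ak2 1.53 with an SE of 0.28. The 2 sources differ by over 0.25 for 5 genes, among them Eif4a3, at -0.12 with an SE of 0.31 in the authors' deposited table.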

How the data were processed

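RNA of sorted hepatocytes was sequenced with a stranded mRNA kit, per the labels. The submitters' processing notes name mm10, TopHat2 2.0.13, Trim Galore 0.4.0 and DESeq2. Which tool counted reads, with what strand setting and annotation, is not given in the sources used here, so genes that overlap or share near-identical copies are uncertain. The deposited table holds raw counts per gene unscaled by the authors. Of the columns of results deposited by the authors, the signal column is the mean of counts over size factors, the log2 columns hold fold changes and their standard errors, the ratio column the linear fold change, the score column the test statistic, and the p-value columns p and adjusted p. Fold changes in that table run TERT(High) over TERT(Low), a direction checked against the counts.

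edgeR 4.0.16 in R 4.3.3 was fitted to all genes passing filterByExpr (TMM scaling, robust quasi-likelihood, group as the only term), with SE as the absolute log2 fold change over the square root of F. Its common biological coefficient of variation was 40.7%. The labels give the same mouse for both libraries of a pair; deviations of the 2 libraries of a mouse from their group means correlated at -0.089, 0.733 and 0.601 in mice 1, 2 and 3. The mouse as a block was an alternative (coefficient of variation 29.6%). Further alternatives changed scaling, filter, tool (DESeq2 1.42.0, limma-voom with limma 3.58.1), threshold and libraries, or took trends with length and GC content out of every library (mgcv 1.9.3; lengths from GENCODE M21 for 94.4% of tested genes, including all 67 members). The edgeR fit with group as the only term was tried on simulated counts. These had less variation between libraries than the data, no mouse effect and no trend with length or GC content. The block and the length and GC correction were not tried in that way. Promoters and coordinates are RefSeq's on GRCm38.p6. Values in every library are given for genes that passed, the 5 largest differences each way, the 5 highest levels, kinases, eIF4E binding proteins and the members of 12 ratios. Members, lists and tests were chosen with earlier results of these data known. Precision reflects counting error and 3 mice.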

Additional observations from a re-analysis of the deposited data

How the results depend on the processing

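Against 3 members higher and 4 lower, edgeR gave 0 and 0 after the length and GC correction (0% and 0% of all genes tested) and 4 and 1 with that correction and the mouse as a block (3.46% and 0.765%). It gave 8 and 6 with the strict filter of at least 5 CPM in 3 libraries, which leaves 60 members (11.9% and 8.24%). It gave 2 and 10 with upper-quartile scaling (4.08% and 5.36%), 3 and 0 with library totals alone (4.73% and 0.143%) and 11 and 13 at an adjusted p under 0.10 (10.7% and 8.56%). DESeq2 gave 10 and 16 (13.6% and 11.3%). Leaving out 1 library or mouse in turn gave 0 to 6 higher and 0 to 9 lower. Only without TERT(High) of mouse 1 were there any calls, 6 and 9 (6.85% and 5.21% of all genes tested). In the other settings that left out a library or mouse, 0% of all genes tested were called. A block for the mouse gave 4 and 5, adding Eif5b and Eif2b2 and losing none. Library totals alone moved the median of all genes to 0.14 and that of members to 0.07.

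Of 32 members followed through 21 alternatives, 25 kept their sign in all that gave a value. The length and GC correction gave 0.081 for Eef1a1, 0.35 for Eif1, 0.20 for Eif4a2 and -0.066 for Eif4g2. Adding a block for the mouse gave 0.057, 0.36, 0.20 and -0.059 for these, and 0.050 for Eif4ebp3. Library totals alone gave 0.046 for Eef2, 0.11 for Eif1 and 0.14 for Eif4a2, and the strict filter 0.022 for Eif1 and 0.045 for Eif4a2. Leaving out single libraries gave -0.26 to 0.026 for Eef1a1, -0.31 to 0.043 for Eef2, -0.20 to 0.045 for Eif1, -0.035 to 0.27 for Eif3b, -0.19 to 0.12 for Eif4a2 and -1.29 to 0.17 for Eif4ebp3. Leaving out a mouse gave -0.18 to 0.038 for Eef2, -0.12 to 0.020 for Eif1 and -0.22 to 0.20 for Eif4a2. For log2 ratios it gave -0.11 to 0.15 for Eef2 to Eef1a1, -0.077 to 0.27 for Eif2ak3 to Eif2ak1, and -0.083, 0.034 and 0.044 for Gspt1 to Etf1. The cause of these changes was not tested. Eif3a and Eif2ak2 kept log2 fold changes of 1.63 to 2.23 and 1.42 to 1.94. Low counts limit what Eef1a2, Eif5a2 and Gspt2 can show.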
